A study of Mus musculus with 17 samples.

Results

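Of the 17 liver libraries in the series, 4 are described here: the livers labelled Nampt OE given saline or 200 mg/kg acetaminophen (APAP), which lay apart by sequencing lane, 2 in L004 and 2 in L008. They were chosen by their own expression values: on the second principal component of all 17 libraries, which held 13.41% of the variance, the L004 saline liver scored 39.28 and the L004 liver given APAP scored 38.77, while the next library, a Het saline liver of L008, scored 15.01. The OE livers of L008 scored -19.14 and -13.17. The remaining OE liver, which was also in L004 and had 300 mg/kg APAP, scored -13.82, on the side of the L008 livers. Because the same values chose the libraries, the difference between L004 and L008 is given as a description with no test.

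The study measured liver RNA of male C57BL/6 mice 24 h after saline or APAP, a painkiller that injures the liver at high dose. Nampt, the gene altered in these mice, encodes the rate-limiting enzyme of NAD synthesis from nicotinamide, and the series' title asks whether it protects the liver from APAP. The genotype labels are Nampt +/+ (WT here), Nampt +/- (Het) and Nampt OE, a label whose construct and promoter the sources used here do not describe. Each library is labelled as 1 liver.

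The L004 pair consisted of a liver from an OE mouse of 11 weeks given saline and one from an OE mouse of 11 weeks given 200 mg/kg APAP, and neither liver was perfused. The L008 pair consisted of a perfused OE liver at 11 weeks after saline and a perfused OE liver at 12 weeks after 200 mg/kg APAP. Lane and perfusion therefore cannot be told apart within these 4 livers, and in the APAP pair age differs too. Another OE liver of L004, not perfused, at 12 weeks, had received 300 mg/kg APAP and is set beside them. The 11 WT and Het livers given saline (5) or 200 mg/kg APAP (6) serve as reference: the saline livers were 3 WT (2 perfused at 12 weeks in L007, 1 not perfused at 11 weeks in L006) and 2 Het (perfused, 11 weeks, L008), and the APAP livers were 3 WT (not perfused, L005) and 3 Het (1 perfused in L008, 2 not perfused in L005), all 6 at 11 weeks. With 1 library in each cell of lane and treatment, the spread between animals is unknown.

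Values are FPKM (fragments divided by transcript length and by the library's mapped total), and differences are L004 minus L008 on the log2(FPKM + 1) scale, which understates the change of low genes. Of 46073 genes in the table, 10885 averaged 1 FPKM or more in the 4 livers and were not failed estimates. A gene is called higher or lower in L004 where the difference was at least 2-fold (1 on the log2 scale) in the same direction under saline and under APAP. Read depth is unknown. The summed FPKM ranged from 466883 to 916006 over the 17 libraries, 10631 to 11496 genes reached 1 FPKM, and the top 10 genes took 18.2% to 28.8% of the sum.

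Several of the genes described below belong to well known liver programmes. Heat shock proteins and the chaperones of the endoplasmic reticulum (ER) are made when proteins misfold, through the factor HSF1 in the cytosol and through the unfolded protein response in the ER. Hepatocytes switch cholesterol and fatty acid synthesis on through the SREBP factors after feeding, and switch fatty acid oxidation and the Cyp4a enzymes on through PPARα in fasting. They also secrete acute phase proteins such as the serum amyloids when inflammatory cytokines reach them.

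By this rule 121 genes were higher in the L004 livers, which is 1.11% of the genes kept, and 254 were lower, which is 2.33%. The higher genes had a median mean difference of 1.52 and the lower genes one of -1.61, against 0.02 over all genes. Protein-coding genes made up 104 of the 121 and 219 of the 254. Just inside the threshold stood mt-Nd2 (1.42 under saline, 1.01 under APAP) and Fgf21 (1.02 and 1.58) on the higher side and Ulk1 (-1.41 and -1.001) on the lower. Just outside stood Hspa4 (1.03 and 0.997) and Klf11 (-0.997 and -1.14). In all, 72.58% of the genes had the same sign in both treatments, 4082 of the 10885 being positive and 3818 negative, and the counts of members with 1 sign below are to be read beside these.

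**Figure D1:**
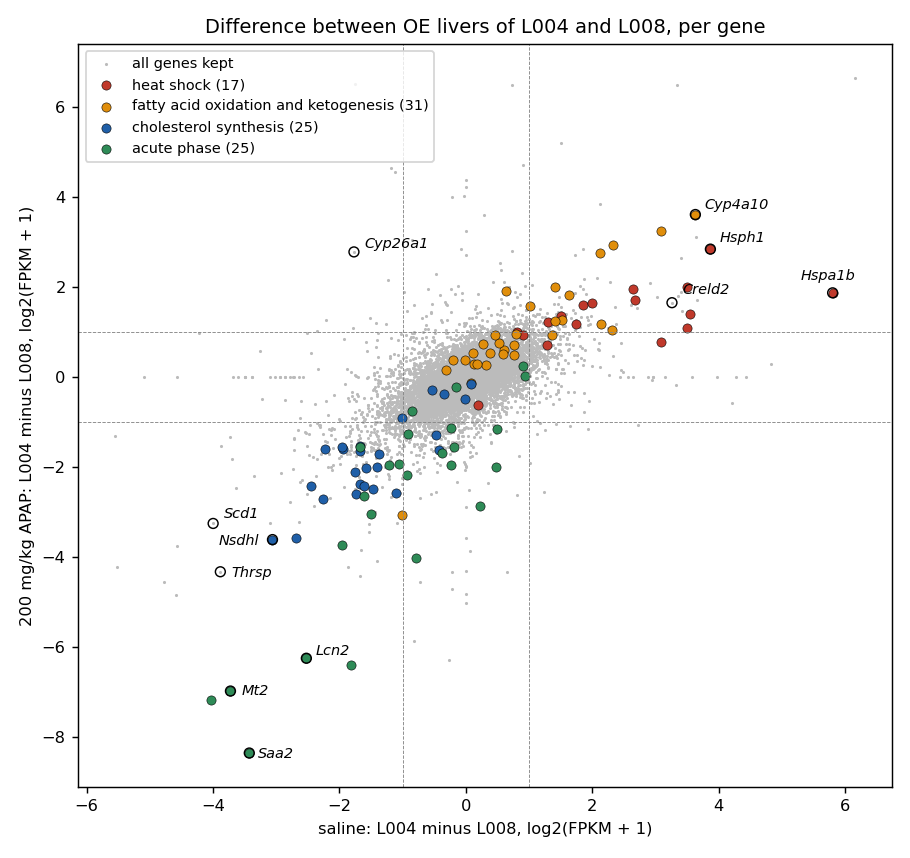
Each point is a gene, with the L004 minus L008 difference under saline on the horizontal axis and under 200 mg/kg APAP on the vertical axis, both in log2(FPKM + 1), and dashed lines at 2-fold. Heat shock genes lie to the upper right with 12 of 17 past both lines, cholesterol synthesis genes lie to the lower left with 18 of 25 past both lines, and the acute phase genes reach furthest down under APAP.

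Sequences of 4 promoters of chaperone and ER stress genes called higher in L004 are shown first, chosen because they hold the binding motifs of the factors named above. Each run is the 250 bases before the RefSeq start on GRCm38.p6, read 5′ to 3′ on the strand of the gene, with the motif in capitals. For Hsph1 (chr5:149636337-149636586, minus strand) and Hspa1b (chr17:34959239-34959488, minus strand) the capitals mark a facing pair of heat shock units, GAANNTTC or TTCNNGAA. For Hspa5 (chr2:34771840-34772089, plus strand) and Creld2 (chr15:88819396-88819645, plus strand) they mark the ER stress element, CCAAT and CCACG with a gap of 9 bases, read on either strand.
Hsph1: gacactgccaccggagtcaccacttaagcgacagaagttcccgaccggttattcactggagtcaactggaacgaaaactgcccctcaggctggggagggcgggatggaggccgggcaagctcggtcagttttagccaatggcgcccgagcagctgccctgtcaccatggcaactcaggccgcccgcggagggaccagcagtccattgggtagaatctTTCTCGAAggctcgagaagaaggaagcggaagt
Hspa1b: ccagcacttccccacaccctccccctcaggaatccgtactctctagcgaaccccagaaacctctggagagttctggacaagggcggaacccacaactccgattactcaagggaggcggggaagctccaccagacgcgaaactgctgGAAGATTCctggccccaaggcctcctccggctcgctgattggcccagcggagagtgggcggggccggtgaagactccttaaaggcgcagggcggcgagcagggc
Hspa5: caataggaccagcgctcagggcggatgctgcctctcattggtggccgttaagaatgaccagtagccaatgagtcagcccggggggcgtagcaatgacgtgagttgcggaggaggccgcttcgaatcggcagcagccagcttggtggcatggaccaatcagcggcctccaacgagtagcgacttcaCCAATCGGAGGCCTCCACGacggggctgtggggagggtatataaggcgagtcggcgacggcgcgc
Creld2: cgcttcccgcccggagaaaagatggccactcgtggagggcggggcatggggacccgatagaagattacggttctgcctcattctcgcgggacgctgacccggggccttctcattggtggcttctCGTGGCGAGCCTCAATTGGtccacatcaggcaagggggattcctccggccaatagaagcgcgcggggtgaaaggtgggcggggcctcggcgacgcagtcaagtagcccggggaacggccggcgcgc

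The motif began 33 bases before the start in Hsph1, 104 in Hspa1b, 65 in Hspa5 and 126 in Creld2, where it lies on the opposite strand. The heat shock pair was found in 7 of the 13 heat shock genes with a promoter entry and in 14.5% of all 27025 genes with one. Over the whole set of called genes it was about as frequent on both sides, in 14 of 76 higher and 27 of 169 lower genes with an entry (18.4% and 16.0%), against 12.5% of the genes kept. The ER stress element was found in 8 of 16 ER chaperone genes and in 0.13% of all genes. It was in 3 of the 76 higher and 1 of the 169 lower genes. Its CCAAT letters alone stood in 15 of the 16 ER chaperone promoters, in 16 of 17 cholesterol synthesis promoters and in 37.5% of all. A sterol element, TCACNCCAC on either strand, was in 1 of the 17 cholesterol synthesis promoters (that of Hmgcs1) and in 1.22% of all. These are matches of letters, not measured binding.

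Cytosolic chaperones were the group with the largest share of genes higher in L004. Of 17 heat shock genes kept, 12 were higher and 0 lower, 16 had a positive difference in both treatments, and the median difference was 1.82 (1.99 under saline, 1.38 under APAP). Hsph1, a nucleotide exchange partner of Hsp70, read 94.8 FPKM in the L004 saline liver, 5.55 in the L008 saline liver, 72.1 in the L004 APAP liver and 9.14 in the L008 APAP liver. Both L004 livers were above every WT and Het liver (7.57 to 20.9 under saline, 16.2 to 29.7 under APAP), and both L008 livers were below them. Its differences were 3.87 and 2.85.

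Hspa1b, an inducible Hsp70, was at 87.4 FPKM in L004 and 0.583 in L008 after saline, and at 18.9 and 4.41 after APAP. The saline difference (5.80) was far above the APAP difference (1.88), and the L004 APAP value lay within the WT and Het range of 2.98 to 21.2. Because Hspa1b has a near-identical neighbour, Hspa1a, its reads can be split between copies and its level is uncertain. Hspa8, the constitutive Hsp70, read 2149 and 343 FPKM after saline and 1926 and 494 after APAP, with WT and Het livers between 214 and 904. Hsp90aa1, an inducible Hsp90, read 501 and 43.2 after saline and 391 and 96.5 after APAP. Its WT and Het livers ranged from 79.2 to 283, so both L004 livers were again above all of them.

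The small chaperone Hspb1 differed by 3.55 under saline and 1.41 under APAP, and Bag3, a co-chaperone that links Hsp70 to autophagy, by 3.49 and 1.10. Dnajb1, a J-protein that delivers clients to Hsp70, differed by 3.09 and only 0.78, so it missed the 2-fold rule under APAP. The mitochondrial pair was near the threshold: Hspd1 differed by 0.81 and 1.02, and Hspe1 by 0.91 and 0.93. Cryab was the member whose sign differed between treatments (0.18 and -0.62).

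The L008 livers were at the other end of the range. After saline, 16 of the 17 heat shock genes were above all WT and Het saline livers in L004, and 16 of 17 were below all of them in L008. The same counts over all genes were 2927 of 10885 above in L004 and 2565 of 10885 below in L008. After APAP, 14 of 17 were above in L004 and 2 of 17 below in L008, against 29.0% and 14.6% of all genes. The distance between the saline livers thus includes a high L004 liver and a low L008 liver.

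The 300 mg/kg liver shares lane, perfusion state and genotype label with the L004 pair and had heat shock levels near those of L008. Hsph1 read 8.65 FPKM in it, Hspa8 368, Hsp90aa1 66.6 and Hspa1b 1.67. In 0 of 17 heat shock genes was this liver nearer to the L004 than to the L008 liver given 200 mg/kg, against 41.2% of all genes. It differs from the other L004 livers in dose, and from the L004 pair in age.

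Chaperones of the ER were higher in L004 mainly under saline. Of 18 genes of the list, 4 were called higher, 0 lower and 14 were positive in both treatments, with a median difference of 1.196 under saline and 0.60 under APAP. Hspa5, the ER Hsp70 known as BiP, read 1863 FPKM in L004 and 491 in L008 after saline, and 1623 and 638 after APAP. WT and Het livers spanned 455 to 937 after saline and 823 to 1213 after APAP, so both L004 livers were above every one of them. Creld2, an ER stress inducible secreted protein, read 260 and 26.2 after saline and 176 and 55.0 after APAP. Its L004 APAP value lay within the WT and Het APAP range of 96.8 to 181, and the L008 APAP liver was below that range.

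The other ER genes called higher were Dnajb9, a BiP co-chaperone (1.92 and 1.65), and Manf, a secreted stress factor (1.56 and 1.15). Syvn1, the ubiquitin ligase that removes misfolded ER proteins, is in no list here and differed by 2.36 and 1.57. Hsp90b1 (1.39 and 0.53), Hyou1 (1.42 and 0.48) and Herpud1 (1.60 and 0.88) reached 2-fold under saline alone. The lectin chaperones Calr (0.66 and -0.31) and Canx (0.14 and -0.29) had opposite signs in the 2 treatments. Small subunits of the ER import and folding machinery differed the other way: Sec61b by -1.26 and -1.38, Ssr4 by -1.09 and -1.27, and Ppib by -1.08 and -1.11. These 3 and Syvn1 were picked after their values were seen.

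Ddit3, which encodes the stress transcription factor CHOP, read 48.5 FPKM in L004 and 3.65 in L008 after saline and 42.9 and 10.8 after APAP. Both L004 values were above all WT and Het livers (4.03 to 8.43 after saline, 18.3 to 31.2 after APAP), and both L008 values were below them. The rest of the integrated stress response list did not follow it: 2 of 13 genes were called higher (Ddit3 and Fgf21), 0 lower, and the median difference was -0.09. Atf4, which drives that response, differed by 0.996 and 0.31, and Asns, an amino acid synthesis target of it, by -1.45 and 0.05.

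Genes of cholesterol synthesis were lower in L004 along the whole pathway. Of 25 genes kept, 18 were called lower and 0 higher, 24 were negative in both treatments, and the median difference was -1.77 (-1.61 under saline, -1.71 under APAP). Hmgcs1, an early enzyme of the pathway, read 40.05 FPKM in L004 and 195 in L008 after saline and 22.5 and 153 after APAP. Each L004 liver was below all WT and Het livers of its treatment, and each L008 liver was within their range. Fdps, which makes farnesyl diphosphate, read 56.8 and 372 after saline and 26.7 and 331 after APAP. Its WT and Het livers spanned 167 to 454 and 211 to 436.

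Nsdhl, a sterol demethylation enzyme, had the widest gap of the pathway, with 3.97 and 40.5 FPKM after saline and 1.80 and 33.1 after APAP (differences -3.06 and -3.61). Insig1, the sterol-sensing brake on SREBP, differed by -1.75 and -2.10. Srebf2, the gene of the factor that drives the pathway, was the exception in sign (0.09 and -0.15), and its level was 2.67 to 3.09 FPKM in the 4 livers.

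Counted against the reference livers, 19 of 25 cholesterol synthesis genes had both L004 livers below all WT and Het livers of the same treatment, which 9.49% of all genes did. Only 1 of the 25 had both L008 livers above them (5.79% of all genes) and 1 had both below (4.66%). The summed level of the list was 776 and 547 FPKM in the L004 livers, 2542 and 2027 in the L008 livers and 1939 in the 300 mg/kg liver. WT and Het livers summed to between 1317 and 2791. The 300 mg/kg liver was nearer to L004 in 3 of the 25 genes.

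Fatty acid synthesis genes were lower in L004 as well, less uniformly. Of 20 lipogenesis genes 10 were called lower and 0 higher, with a median difference of -1.10. In L004, 15 of the 20 were below every WT and Het liver after saline, against 26.7% of all genes. After APAP only 4 of the 20 were, against 21.1%. In the L008 APAP liver 6 of the 20 were above every WT and Het APAP liver, against 21.9%. Scd1, which desaturates fatty acids, read 48.6 FPKM in L004 and 792 in L008 after saline, and 74.8 and 719 after APAP. Both L004 values were below the WT and Het livers (525 to 1124 and 103 to 1272). Thrsp, a regulator of lipogenesis, read 16.1 and 252 after saline and 6.57 and 150 after APAP. Srebf1, the lipogenic SREBP, differed by -2.32 and -1.06, Fasn by -1.41 and -1.49, and Acly, which supplies acetyl-CoA, by -2.09 and -1.14.

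Genes of fatty acid oxidation and its PPARα targets were higher in L004. Of 31 genes kept, 11 were called higher and 1 lower, and 26 were positive in both treatments, with a median difference of 0.70. Cyp4a10, an ω-hydroxylase of fatty acids, read 1300 FPKM in L004 and 104 in L008 after saline and 1002 and 80.6 after APAP. The reference livers ranged widely after saline (141 to 1147) and narrowly after APAP (48.7 to 107), so the L004 APAP liver was above all APAP livers and within the saline range. Cyp4a14 read 1755 and 204, then 1350 and 141. Both genes have close copies and can share reads.

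Acot3, a peroxisomal thioesterase, read 9.16 and 1.03 FPKM after saline and 9.11 and 0.315 after APAP. Ehhadh, the peroxisomal bifunctional enzyme, differed by 1.42 and 2.00. The mitochondrial entry enzyme Cpt1a differed by 0.13 and 0.30 and Ppara itself by 0.12 and 0.55. Angptl4, a lipoprotein lipase inhibitor that is also a PPAR target, was the member called lower (-1.005 and -3.07). After APAP, 27 of the 31 genes were above every WT and Het APAP liver in L004, against 6 of 31 in L008 and 22 of 31 in the 300 mg/kg liver. Over all genes, these counts were 3162, 2388 and 3026 of 10885.

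**Figure D2:**
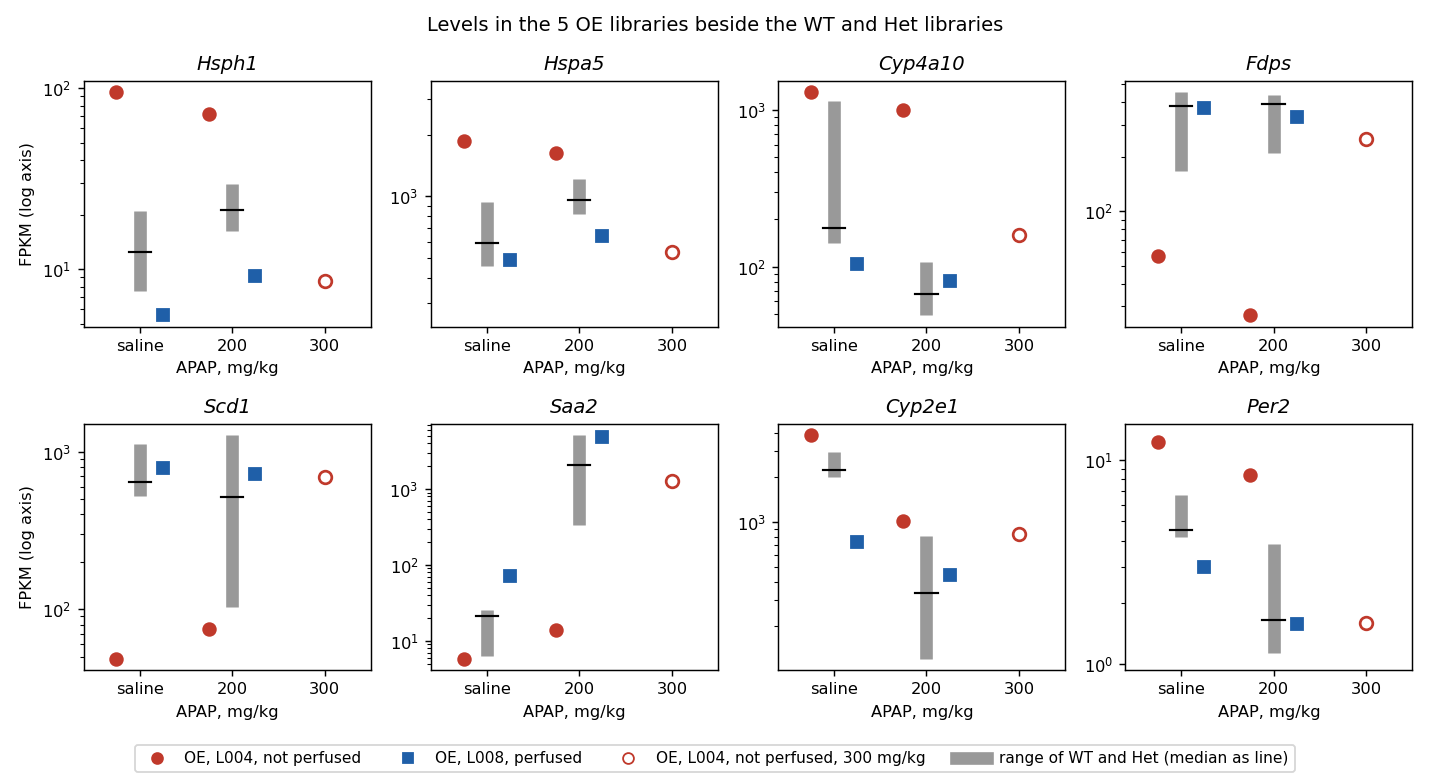
FPKM on a log axis for 8 genes, with filled circles for OE livers of L004, squares for OE livers of L008, an open circle for the 300 mg/kg OE liver, and grey bars for the range of the 5 WT and Het saline or 6 WT and Het 200 mg/kg livers with a line at their median. Hsph1 and Hspa5 are highest in the L004 pair, Fdps and Scd1 are lowest there, and the 300 mg/kg liver lies on the side of L008 for Hsph1 (8.65), Fdps (251) and Scd1 (692).

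Of 18 gluconeogenesis and fasting genes, 5 were called lower in L004 and 0 higher, with a median of -0.39. G6pc, the last enzyme of glucose release, read 3.59 FPKM in L004 and 58.3 in L008 after saline and 9.04 and 80.3 after APAP. Both L004 values were below all WT and Het livers. Igfbp1, an insulin-suppressed binding protein, read 1.67 and 63.0, then 9.08 and 286. Its L004 values were below and its L008 values above all WT and Het livers (5.11 to 34.5 and 54.85 to 233). Pck1, the entry enzyme of gluconeogenesis, read 121 and 806 after saline and 484 and 1231 after APAP. After APAP its L004 value was within the WT and Het range (420 to 663) and its L008 value above it. Of the 18 genes, 4 had both L004 livers below and 5 had both L008 livers above the WT and Het livers (9.49% and 5.79% of all genes). Lpin1, a fasting-induced phosphatase counted in the lipogenesis list and not in this one, differed by -1.87 and -4.22. Genes known to be raised by insulin stood on both sides: Srebf1 and Scd1 were lower in L004 and Ppp1r3b, which targets a phosphatase to glycogen, was higher (89.7 and 6.22 FPKM after saline, 55.3 and 16.0 after APAP).

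Acute phase genes were lower in the L004 than in the L008 livers, most of all after APAP. Of the 28 listed genes, 3 were left out as failed estimates. Of 25 acute phase genes kept, 11 were called lower in L004 and 0 higher, with a median difference of -0.92 under saline and -1.95 under APAP. Saa2, a serum amyloid, read 5.84 FPKM in L004 and 72.6 in L008 after saline, and 13.8 and 4851 after APAP. The 6 WT and Het APAP livers read 339 to 5095, and the 300 mg/kg liver read 1262, so the L004 APAP liver was the one at the level of saline livers (6.36 to 25.2). Saa1 followed it, with 39.5 and 5808 after APAP. Saa1 and Saa2 are near copies that can share reads.

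Mt2, a metal-binding stress protein, read 1.81 and 36.1 FPKM after saline and 10.3 and 1425 after APAP. WT and Het livers read 1.09 to 3.91 after saline and 78.0 to 1170 after APAP, so after saline the L008 liver stood apart. Haptoglobin (Hp) read 1465 and 2783 after saline and 1548 and 6977 after APAP, with WT and Het APAP livers between 2992 and 7060. Lcn2 (lipocalin), an iron-chelating protein made by injured hepatocytes and by neutrophils, read 8.57 in L004 and 725 in L008 after APAP. Within L004, the median APAP minus saline difference of the list was 0.41, and within L008 it was 1.80. After saline, 13 of the 25 genes were below every WT and Het saline liver in L004, against 26.7% of all genes. In L008, 13 of the 25 were above every one of them, against 19.8%. The saline gap thus includes a high L008 liver. After APAP, 17 of the 25 genes were below every WT and Het APAP liver in L004 and 0 in L008, against 21.1% and 14.6% of all genes. Hamp, the iron hormone hepcidin, was apart from the list, with differences of 0.93 and 0.04.

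Neutrophil and macrophage markers were lower in L004, while the platelet (4 genes) and B cell (2 genes) lists had 0 called. Of 15 neutrophil markers listed, 5 passed the filter on mean FPKM. All 5 were negative in both treatments, with 4 called lower. The filter used the same 4 livers, so a weak marker can pass through L008 alone, which largely fixes its sign. Prtn3, for example, read 0.128 and 0.228 FPKM in the L004 saline and APAP livers and 1.28 and 5.39 in those of L008. The summed level of the 5 was 4.32 and 14.0 FPKM in the L004 livers and 29.1 and 801 in the L008 livers. It was 161 in the 300 mg/kg liver, and most of it was Lcn2. WT and Het livers summed to 4.87 to 10.2 after saline and 49.3 to 2492 after APAP. In bulk tissue, fewer cells of a type and less RNA per cell cannot be told apart.

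Of 14 monocyte and macrophage markers listed, 9 passed the same filter, and weak ones among them can likewise pass through L008 alone. All 9 were negative in both treatments, with 4 called lower and a median of -1.18. Lyz2, macrophage lysozyme, read 28.8 and 78.4 FPKM after saline and 37.0 and 89.9 after APAP. Of 13 Kupffer cell markers, 11 were negative in both treatments and 1 was called lower. Among them Clec4f, which defines these resident macrophages, read 25.4 and 55.6, then 26.2 and 43.9. All 14 antigen presentation genes were negative in both treatments (median -0.62), with Psmb8, an immunoproteasome subunit, called lower (-1.31 and -1.17). Endothelial markers had a median of -0.09 and 0 of 17 called. Hepatocyte markers had a median of -0.08, which became 0.08 with quantile normalization, and summed to 29758 to 42880 FPKM in the 4 livers.

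Zonal and metabolic enzymes of hepatocytes differed in both directions. Of 15 pericentral markers 3 were called higher and 1 lower, with a median of 1.27 under saline and 0.32 under APAP. After saline, 13 of the 15 were below every WT and Het saline liver in L008, against 23.6% of all genes. In L004, 5 were above all of those livers and 5 below, against 26.9% and 26.7%. The saline median thus includes a low L008 liver. Cyp2e1, the main enzyme that makes the toxic product of APAP, read 3831 FPKM in L004 and 734 in L008 after saline and 1016 and 446 after APAP. The L004 livers were above every WT and Het liver (1999 to 2983 and 122 to 813), and the L008 saline liver was below them. Cyp1a2, another pericentral cytochrome, differed by -1.28 and -1.56. The nuclear receptor Nr1i3 (CAR) read 82.7 and 16.2, then 35.6 and 7.43.

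Of 24 bile acid synthesis and transport genes, 1 was called higher (Cyp7a1) and 3 lower, with a median of 0.27. Cyp7a1, which starts the classic route from cholesterol to bile acids, read 129 and 34.8 FPKM after saline and 58.7 and 7.27 after APAP. Both L004 values were above all WT and Het livers (28.2 to 64.2 and 0.477 to 13.8). The bile acid transporter Slco1a1 differed by -1.44 and -2.99. Of 15 periportal markers, 1 was called higher (Asl) and 2 lower (Sds and Pck1), with a median of -0.20. Of 31 urea cycle and amino acid genes, 2 were called higher (Asl and Mat1a) and 1 lower (Sds), with a median of 0.23. Asl of the urea cycle read 998 and 359, then 982 and 285. Mat1a, which makes S-adenosylmethionine, read 2630 and 790 after saline and 2745 and 1022 after APAP, where WT and Het livers were at 176 to 448. In the L004 livers Asl and Mat1a were nearly level between saline and APAP (changes of -0.02 and 0.06). In the L008 livers they changed by -0.33 and 0.37. The L008 APAP liver was also above all WT and Het APAP livers for both (50.05 to 139 for Asl). After APAP, 27 of the 31 urea cycle and amino acid genes were above those livers in L004 and 28 in L008. Over all genes these shares were 29.0% and 21.9%.

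Of 19 clock genes 2 were called higher and 1 lower, with a median of 0.29. Per2, a repressor of the clock, read 12.3 and 2.999 FPKM after saline and 8.38 and 1.57 after APAP, above all WT and Het livers in both L004 livers. Wee1, a clock-driven cell cycle kinase, differed by 1.05 and 2.05, and Nr1d1, the Rev-erbα repressor, by -1.08 and -1.36. Arntl, which runs opposite to the Per genes, differed by 0.23 and -0.33 at 0.739 to 1.91 FPKM. The hour of collection was not given in the sources used here.

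Nampt itself read 27.2 FPKM in L004 and 22.4 in L008 after saline and 36.0 and 18.5 after APAP, with 18.2 in the 300 mg/kg liver. WT and Het livers read 15.3 to 26.02 after saline and 10.9 to 16.8 after APAP. The L004 livers were above those ranges in both treatments, the L008 liver after APAP only, and neither difference (0.27 and 0.92) reached 2-fold. Of 29 genes of NAD synthesis and consumption, 0 were called in either direction, and the median was -0.14.

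Other leading genes belonged to no group above. Fabp5, a fatty acid binding protein, read 1.11 and 96.5 FPKM after saline and 2.60 and 66.2 after APAP, with the L004 livers below all WT and Het livers. Tff3, a secreted trefoil peptide, read 3.98 and 232 after saline and 119 and 293 after APAP. Its WT and Het saline livers read 2.15 to 8.53, so here the L008 saline liver stood apart. Among higher genes, Eif4ebp3, an inhibitor of cap-dependent translation, read 67.9 and 5.48, then 68.0 and 9.998, and Actg1, cytoplasmic γ-actin, read 206 and 26.5, then 198 and 45.9.

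Other lists held lower genes too. Of 22 interferon response genes kept (27 listed), 3 were called lower and 0 higher (median -0.42), and of 20 male-biased genes 5 and 1 (median -0.47). Weak interferon genes passed the same filter, so the limit given for the neutrophil markers holds for them too. Of 16 glucocorticoid targets 5 were called lower and 0 higher (median -0.60). These 5 (Mt1, Mt2, Lcn2, Sds and Pck1) were already counted above in the acute phase or gluconeogenesis lists. Elovl3, a fatty acid elongase of male liver, read 14.8 and 49.0 FPKM after saline and 3.89 and 68.7 after APAP, and its WT and Het saline livers read 21.3 to 114. Ly6e, an interferon-induced surface protein, read 25.9 and 139, then 37.5 and 174, below all WT and Het livers in both L004 livers.

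Livers with and without perfusion were also compared among the 11 WT and Het livers, which the choice of libraries did not use. limma was fitted to all 10885 genes with a mean for each group and a term for perfusion, with 6 residual degrees of freedom. Only WT saline (1 not perfused, 2 perfused) and Het APAP (2 not perfused, 1 perfused) inform that term, so it sets 3 livers against 3. Within both groups perfusion follows the lane (L006 or L007, L005 or L008), and in WT saline it follows age too, so these cannot be told apart, and no WT or Het liver was in L004. It called 0 genes, or 0%, at a false discovery rate of 0.05, with the smallest adjusted p at 0.413. At an unadjusted p under 0.05 it found 612 genes, or 5.62%. A p that misses the threshold does not show that perfusion had no effect. The genes higher in L004 had a median perfusion difference of 0.05 there, and those lower had one of -0.10. Without the perfused Het APAP liver (replicate 1), which leaves WT saline alone, these were 0.09 and 0.03. Without the WT saline liver that was not perfused (replicate 3), which leaves Het APAP alone, they were 0.04 and -0.18. The lower genes thus had medians of opposite sign in the 2 groups. They were 0.02 and -0.10 without WT saline replicate 1, and 0.05 and -0.04 without Het APAP replicate 3. Of the 121, 73 were positive, and of the 254, 154 were negative, while 44.48% of all genes were positive.

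The heat shock list had a median of 0.06 in this second comparison, and Hsph1 had a difference of 0.67 (SE 0.27, limma, unadjusted p 0.0357, adjusted p 0.845). Cholesterol synthesis had a median of -0.22 and acute phase genes one of -0.18. The neutrophil list was the one furthest from 0 in the OE livers (-2.40), by the 5 genes that the filter on those livers kept. In the second comparison it had a median of the opposite sign (0.97), with 4 of 5 genes positive and 0 past an unadjusted p of 0.05. Fdps differed by -0.50 there, and Saa2 by -0.75 with an SE of 1.15.

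**Figure D3:**
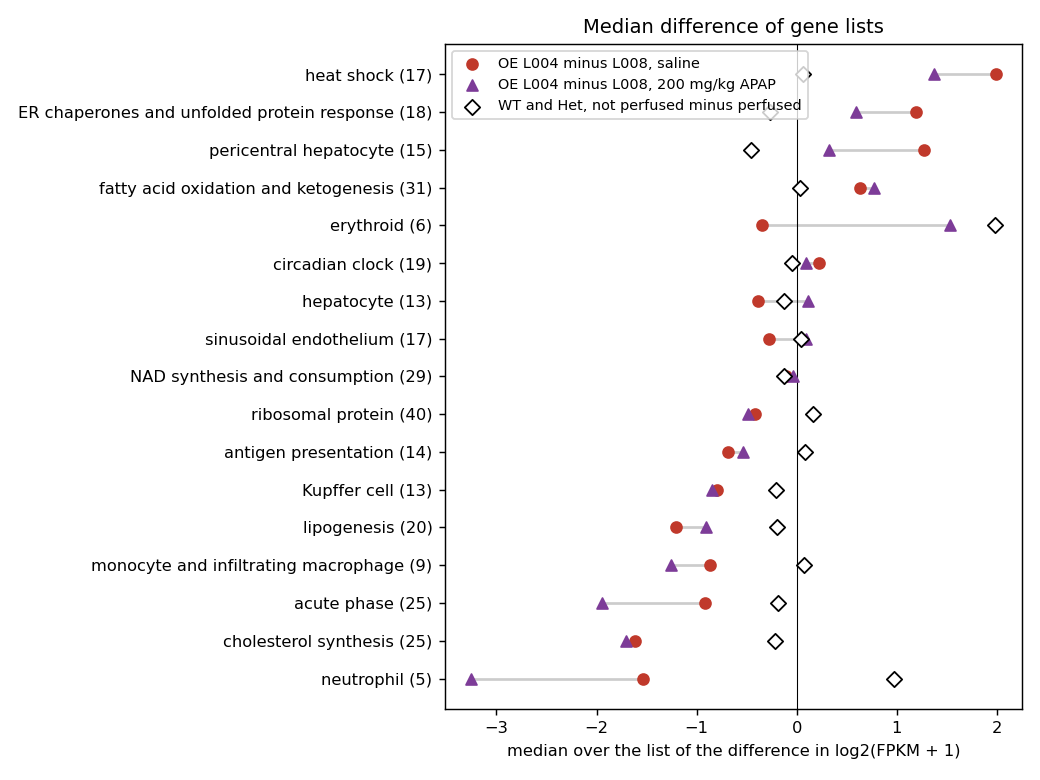
Median difference per gene list in log2(FPKM + 1), with the number of genes kept in brackets: circles for OE L004 minus L008 under saline, triangles for the same under APAP, open diamonds for not perfused minus perfused WT and Het livers. Heat shock (1.99 and 1.38) and cholesterol synthesis (-1.61 and -1.71) lie far from their diamonds (0.06 and -0.22), and the erythroid list lies near its own under APAP only (1.53 and 1.98).

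Haemoglobin transcripts, the ones most directly tied to blood left in a liver, are given separately. In WT and Het livers Hbb-bs, adult β-globin, was higher without perfusion by 2.88 (SE 0.82, limma, unadjusted p 0.0087, adjusted p 0.739), and 4 of 6 erythroid genes had an unadjusted p under 0.05. In the OE livers Hbb-bs read 110 FPKM in L004 and 116 in L008 after saline, and 160 and 42.9 after APAP. The saline pair lay close together, and the APAP pair lay apart with L004 higher. Of 6 erythroid genes, 5 had opposite signs in the 2 treatments. With 1 library in each cell and perfusion following the lane, the part of perfusion in these values was not tested. The summed erythroid level was 183 and 228 FPKM after saline, 263 and 96.8 after APAP and 434 in the 300 mg/kg liver. Haemoglobin genes have close copies and can share reads, and their values were looked at because of the perfusion labels.

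**Figure D4:**
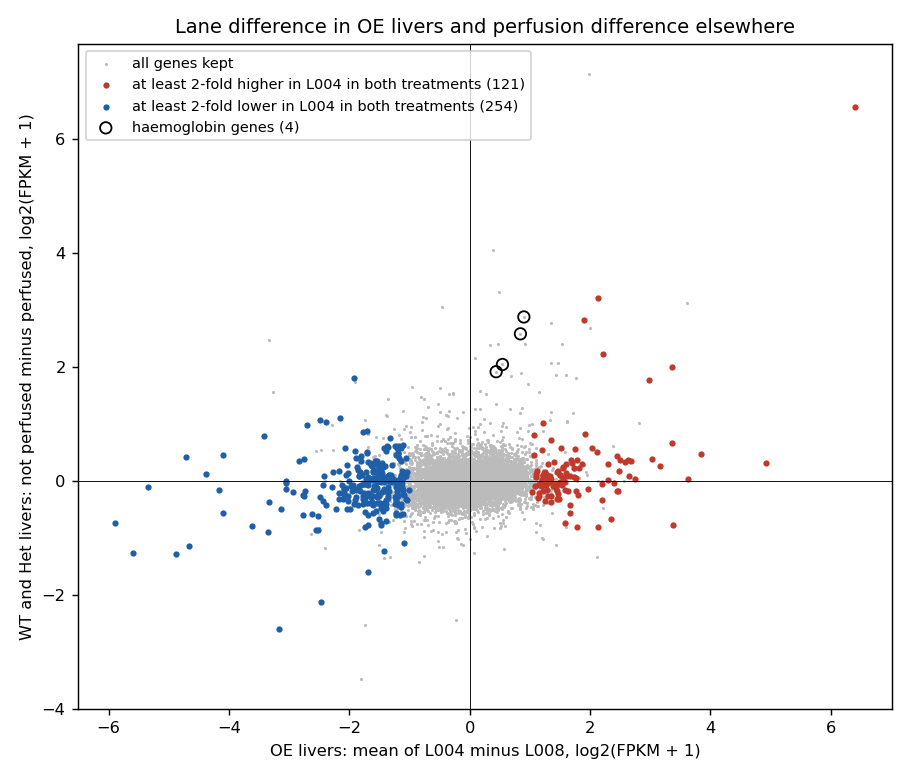
Each point is a gene, with the mean L004 minus L008 difference of the OE livers on the horizontal axis and the not perfused minus perfused difference of the 11 WT and Het livers on the vertical axis, both in log2(FPKM + 1). The 121 higher and 254 lower genes spread around 0 on the vertical axis (medians 0.05 and -0.10), and the 4 haemoglobin genes ringed in black lie at 1.92 to 2.88 on it.

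Signs of library composition differed between the pairs as well. The rRNA gene CT010467.1 was more abundant in the L004 pair: it read 2840 FPKM in L004 and 654 in L008 after saline and 3262 and 225 after APAP, and 474 in the 300 mg/kg liver, which is between the L008 values although that liver was in L004. WT and Het livers spanned 35.2 to 5205 for it. The small nuclear and signal recognition RNA list went the other way, with sums of 16758 and 63242 FPKM after saline and 25687 and 43907 after APAP. WT and Het livers summed to 25414 to 43072 and 27279 to 62326. Of its 11 genes, 9 were negative in both treatments and 1 (Rpph1) was called lower. After saline, 9 of the 11 were above all WT and Het livers in L008, against 19.8% of all genes. Over 10153 protein-coding genes, Spearman's rho between the mean difference and the length of the longest annotated transcript was 0.264, given as a description over genes of the same 4 libraries. The shortest 2031 genes (up to 1899 bases) had a median difference of -0.20 and the longest 2031 (from 5183 bases) one of 0.18. The shortest set held 24 higher and 102 lower genes, the longest 19 and 15.

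Ribosomal protein genes, with a median transcript length of 1053 bases, were negative in both treatments in 37 of 40 cases (median -0.47, 3 called lower). They were positive in 35 of 40 cases in the WT and Het perfusion comparison. Heat shock genes have a median length of 2678 bases and cholesterol synthesis genes one of 3464, against 3302 for all protein-coding genes. The part of transcript length, rRNA and small RNAs in the other differences was not tested.

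In the called genes the L004 livers were outside the range of the reference livers more often than the L008 livers, as over all genes. Of the 121 higher genes, 88 had both L004 livers above all WT and Het livers of the same treatment (12.8% of all genes did). In 20 of them both L008 livers were below (4.66% of all genes). Of the 254 lower genes, 148 had both L004 livers below (9.49% of all genes), and 46 had both L008 livers above (5.79%). The remaining L004 library, at 300 mg/kg, was nearer to the L004 than to the L008 APAP liver in 29 of the 121 and 70 of the 254 genes. Over all genes this share was 41.2%. All of these counts over the called genes use values that also chose the genes, so they are a description.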

How the data were processed

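Mouse liver RNA was made into stranded total RNA libraries with paired-end reads, per the labels' protocols. The submitters' processing notes name Cufflinks 2.2.1, Cuffdiff, TopHat2 2.0.9 and bcl2fastq 2.17.1.14, and the build GRCm38.p5. The authors' annotation is not given in the sources used here. A single table was deposited by the authors, and its values were read as FPKM from the tools and their range, since no header names the unit. Without counts the precision of a value is unknown.

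Gene names and positions came from GENCODE M21 (45225 of 46073 IDs matched). Genes at 0 throughout a genotype and drug block with a mean of at least 10 FPKM elsewhere (89), and neighbours within 100 kb with the same zeros (7), were left out as failed estimates, by a rule chosen after seeing the data. Of the 96, 51 would have passed the filter of 1 FPKM. Differences were taken on log2(FPKM + 1), with a threshold of 2-fold in each treatment, in pandas 2.3.3. The WT and Het comparison used limma 3.58.1 (statmod 1.5.0, R 4.3.3) with a trended and robust prior and Benjamini-Hochberg adjustment. Nothing beyond the labels says that libraries of a group are separate animals, so p-values measure the spread between these samples. Both calculations were checked on data with known differences.

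The libraries and gene lists were chosen with earlier results of these data known. Named genes are Nampt, the 12 highest and 12 lowest called genes by mean difference that had at least 5 FPKM in the higher lane (predicted genes, small RNAs and pseudogenes left out), in each list up to 4 with the largest mean difference of the same sign, up to 5 genes in each direction whose difference varied most between treatments, and up to 8 in each direction with the smallest p for perfusion. Some genes that this rule selects are left out of the text. Further list members are named to show the spread of a list and were chosen after their values were seen. Promoter sequences are from RefSeq, and 8278 of the genes kept had one. Transcript lengths were found for 10850 of the genes kept. Alternatives covered the pseudocount, filters, scaling, the fold threshold, single treatments, left-out replicates and small RNAs.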

Additional observations from a re-analysis of the deposited data

Results flagged for a closer look

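Genes that differed in opposite directions between L004 and L008 in the 2 treatments, at least 2-fold in each, numbered 21. With 1 library in each cell of lane and treatment, the difference between treatments was not tested. Cyp26a1, which degrades retinoic acid, had an L004 minus L008 difference of -1.77 after saline and 2.79 after APAP, from 2.25 and 10.1 FPKM to 27.2 and 3.08 FPKM. Foxq1, a forkhead transcription factor, differed by -2.36 and 1.03.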

How the results depend on the processing

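The 121 higher and 254 lower genes became 218 and 403 with a pseudocount of 0.1, 66 and 129 with a pseudocount of 5, and 593 and 763 at 1.5-fold. With only 1 of the treatments the counts ranged from 316 to 431 higher and from 554 to 590 lower, since 1 threshold was then asked in place of 2. A filter of 5 FPKM (98 and 195), no filter (121 and 257), quantile normalization (138 and 233), scaling to the same median (109 and 278), failed estimates kept (123 and 257) and small RNAs left out (114 and 233, an alternative chosen after seeing the data) moved them by less than 1.5 times. No named gene that was called turned its direction under a pseudocount of 0.1 or quantile normalization. Of 52 list medians, 4 changed sign with quantile normalization, among them hepatocyte markers, 3 with saline alone and 6 with APAP alone. Of 200 named genes, 5 changed sign with saline alone and 5 with APAP alone, none of them called, since a call asks for the same sign in both. In WT and Het livers the count of 0 became 1 with the IG saline library counted as WT saline (Mbd3), and ranged from 0 to 6 with 1 replicate left out. It was 1 without WT saline replicate 1, 1 without Het APAP replicate 2 and 6 without Het APAP replicate 3, and the cause was not tested. No paired analysis was possible because the replicate numbers are only names given in order of accession. Each OE value rests on 1 library at unknown depth, so no error could be given for it.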
